A study of Homo sapiens with 18 samples.

Results

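The DNA replication machinery was followed as 43 genes, taken by symbol from the 23686 gene symbols in the count tables. They comprised 12 genes of origin licensing (ORC1, ORC2, ORC6, CDC6, CDT1, GMNN and MCM2 to MCM7), 8 of helicase activation (MCM10, CDC45, GINS1 to GINS4, CDC7 and DBF4) and 9 for DNA polymerases and primase (POLA1, POLA2, PRIM1, PRIM2, POLD1, POLD2, POLD3, POLE and POLE2). A further 5 encode the sliding clamp and its loader (PCNA and RFC2 to RFC5), 5 the single-strand binding protein RPA and Okazaki fragment enzymes (RPA1, RPA2, RPA3, FEN1 and LIG1), 2 ribonucleotide reductase (RRM1 and RRM2) and 2 fork protection (TIMELESS and CLSPN). Bulk RNA sequencing covered OCI-Ly1 and TMD8, established cell lines from human diffuse large B-cell lymphoma. JIB-04, an inhibitor of histone demethylases of the Jumonji family, was given to each line at 150 nM (the low dose) or 500 nM (the high dose), and the third group of each line had only the vehicle, 0.01% DMSO; the labels named no genetic change or further agent in any group. The title of the series concerns heterochromatin as a vulnerability of lymphoma. Each of the 6 groups had 3 libraries described as technical triplicates, and the labels did not say whether they came from 1 culture or several, so the p-values measure the spread between these libraries. The culture medium was IMDM for OCI-Ly1 and RPMI for TMD8, each with 10% FBS, so line and medium cannot be told apart, and no treatment time was named.

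Replication origins are licensed in G1, when the origin recognition complex, CDC6 and CDT1 load the MCM2 to MCM7 helicase onto DNA, a step that geminin (GMNN) blocks later in the cycle. In S phase the CDC7 kinase with its activator DBF4, together with CDC45, MCM10 and the GINS complex, turns the loaded helicase into an active fork, where polymerase alpha with primase starts new strands and polymerases epsilon and delta extend them. Most of these genes are textbook targets of E2F transcription factors and are transcribed mainly around the G1/S transition of dividing cells.

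The OCI-Ly1 libraries held 17579679 to 32651041 counts and those of TMD8 9550016 to 20509447. Depth differed with dose, in opposite directions in the lines. In OCI-Ly1 it was 17579679 to 25545166 with DMSO and 24830276 to 32651041 at 500 nM. In TMD8 it was 16790876 to 20509447 with DMSO and 9550016 to 14803003 at 500 nM. The part of depth in the results below was not tested. All 43 genes passed the low-count filter in both lines, and the lowest count of any of them in a library was 106, for POLE2 in TMD8. Values are given as TMM-scaled counts per library size (CPM), and a gene was called where edgeR's adjusted p lay under 0.05. Log2 changes are written with ± 1 SE, taken as the size of the change over the square root of edgeR's F statistic. For the cell-type markers alone, CPM was taken over the library total without TMM scaling. The 6 B-cell markers MS4A1, CD79A, CD79B, PAX5, CD22 and EBF1 had counts in every group. Their summed levels were 1200 to 1340 CPM in OCI-Ly1 and 2510 to 2840 CPM in TMD8. The 5 T-cell markers summed to 9.52 to 23.4 CPM in OCI-Ly1 and 4.65 to 8.06 in TMD8, and the 5 myeloid markers to 4.29 CPM at most. The 5 epithelial and stromal markers summed to 17.5 to 25.6 CPM in OCI-Ly1, and in TMD8 they went from 21.4 to 24.0 with DMSO to 53.0 to 55.6 at 500 nM. With DMSO, CD4, ITGAM and FCGR3A were at 0 in OCI-Ly1, and CD3E and FCGR3A were at 0 in TMD8. The part of these markers in the results below was not tested.

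The replication genes responded differently in the lines. In OCI-Ly1 at 150 nM edgeR called none of the 43 genes, where 0.748% of all 15638 tested genes were called higher and 0.141% lower. At an unadjusted p under 0.05 only CDC45 and RRM2 were higher and 0 genes were lower, and DESeq2 also called 0. The high dose brought 12 rises and 12 falls, against 27.7% and 25.9% of all genes, so the share called was close to the background in both directions. The median log2 fold change of the 43 genes was 0.02 beside -0.003 for all genes, and it turned to -0.07 on TPM centred per library. In TMD8, 31 genes fell and 1 rose already at 150 nM, where 25% of the 15363 tested genes fell and 19.2% rose. At 500 nM, 32 fell and 4 rose in TMD8, beside 30.7% and 29.9% of all genes. The median log2 fold change of the genes was -0.40 there and 0.04 over all genes. The 3 libraries at 500 nM lay wholly above the DMSO libraries for 15 and wholly below for 16 of the 43 genes in OCI-Ly1 (31.3% and 29.3% of all genes), and for 3 and 33 in TMD8 (33.1% and 33.3%). Of the 32 falls 28 kept their direction and side of the threshold under all 15 alternative settings, as did 5 of the 12 rises and 5 of the 12 falls in OCI-Ly1. The 4 rises in TMD8 came to 2 without the second DMSO library or the third 500 nM library. The median in OCI-Ly1 ran from 0.0044 without the second 500 nM library to 0.043 without the first.

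The split between rises and falls depended on how libraries were scaled. Of all called genes 51.6% were higher in OCI-Ly1 at 500 nM, 64% with library size as the only scaling and 71.9% on log2(TPM + 1), and the replication genes then came to 21 higher and 7 lower, and to 23 and 5. On TPM centred per library 32.3% were higher, and the rises of CDC6, CDT1, MCM3, GINS2, PRIM1, POLD3 and RFC2 missed the threshold (limma adjusted p from 0.053 to 0.51). In TMD8 at 500 nM 49.3% of called genes were higher, 59.4% with library size alone and 18.8% on log2(TPM + 1), and at 150 nM the shares were 43.5%, 60.5% and 21.3%. The 5 largest entries held 46.0% to 54.0% of all TPM in the TMD8 DMSO libraries and 59.1% to 64.0% at 500 nM. On log2(TPM + 1) the median of all genes in TMD8 was -0.22, beside 0.04 with TMM, and that of the 43 genes was -0.74. In OCI-Ly1 these medians were 0.10 and 0.15. Both doses were compared with the same DMSO libraries in each line, so their values are set side by side and are not independent.

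**Figure D1:**
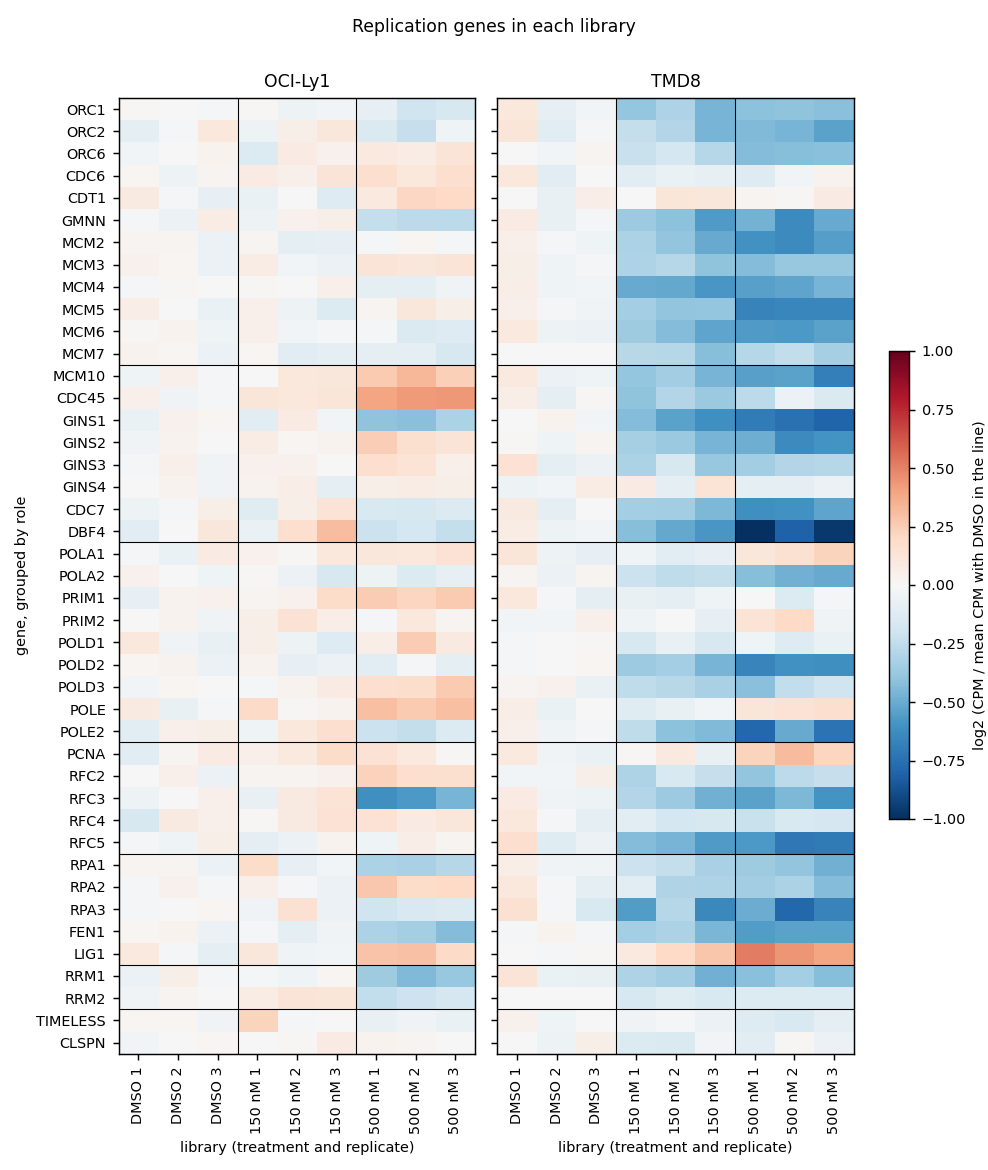
Level of the 43 replication genes (rows, grouped by role with lines between groups) in each of the 18 libraries (columns), as log2 of CPM over the mean CPM of the DMSO libraries of the same line. Colours stop at -1 and 1. OCI-Ly1 columns at 150 nM are nearly white and the 500 nM columns hold both colours, while most TMD8 rows are blue at both doses with LIG1 the clearest red row.

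The 2 doses were also compared with each other. In OCI-Ly1, 12 genes were higher and 12 lower at 500 nM than at 150 nM, where 25.1% and 21.1% of all genes were called. In TMD8, 5 were higher (CDC45, POLA1, POLE, PCNA and LIG1) and 12 lower, beside 13.7% and 15% of all genes. Of all called genes 47.9% were higher there and 10.4% on log2(TPM + 1), where 0 of the 43 genes were higher and 21 lower. In OCI-Ly1 54.3% of called genes were higher, 67.9% with library size alone, 72.7% on log2(TPM + 1) and 31.8% on TPM centred per library, and the 43 genes then came to 18 higher and 9 lower, 18 and 7, and 2 and 18. The count of 12 higher in OCI-Ly1 came to 5 without the second 150 nM library and to 7 without the second 500 nM library. The 12 lower in TMD8 came to 6 without the first or the second 150 nM library. CDC45 in TMD8 was lower at 150 nM than at 500 nM, with 66.5, 59.8 and 64.1 CPM under vehicle, 47.9, 51.9 and 49.2 after the low dose and 52.9, 60.97 and 57.3 after the high dose. Its 3 values at 150 nM lay below the other 6 values. The difference between the doses was lost without the first or the third 150 nM library (edgeR adjusted p 0.0963 and 0.0819) or the second or the third 500 nM library (0.17 and 0.075). It was also lost without the low-count filter (0.065), with DESeq2 (0.0821) and on TPM centred per library (limma adjusted p 0.0988), and was -0.018 on log2(TPM + 1).

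Mitotic genes were set beside the replication genes as the other large group of genes tied to division. This list was chosen with earlier results of these data known. All 20 of them (among them PLK1, CDC20, CCNB1 and KIF20A) fell at 500 nM in both lines, with a median log2 fold change of -0.64 in OCI-Ly1 and -1.42 in TMD8. Of all genes, 25.9% in OCI-Ly1 and 30.7% in TMD8 were lower at that dose. At 150 nM edgeR called 0 of the 20 in OCI-Ly1 and 20 lower in TMD8, where their median was -0.72, beside 0.141% and 25% of all genes lower. The steepest falls among the 43 replication genes were -0.55 for RFC3 in OCI-Ly1 and -0.92 for DBF4 in TMD8. The mitotic genes ranged from -1.46 to -0.36 and from -2.93 to -0.91. In OCI-Ly1 RFC3, RRM1, GINS1 and FEN1 reached that range. In TMD8 DBF4 lay at its mild end (-0.919 against -0.909) and no other replication gene reached it. The medians of the 43 genes were 0.02 in OCI-Ly1 and -0.40 in TMD8. In bulk RNA fewer cells in a cycle phase and less RNA per cell cannot be told apart, and the part of cell cycle position in the changes below was not tested.

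**Figure D2:**
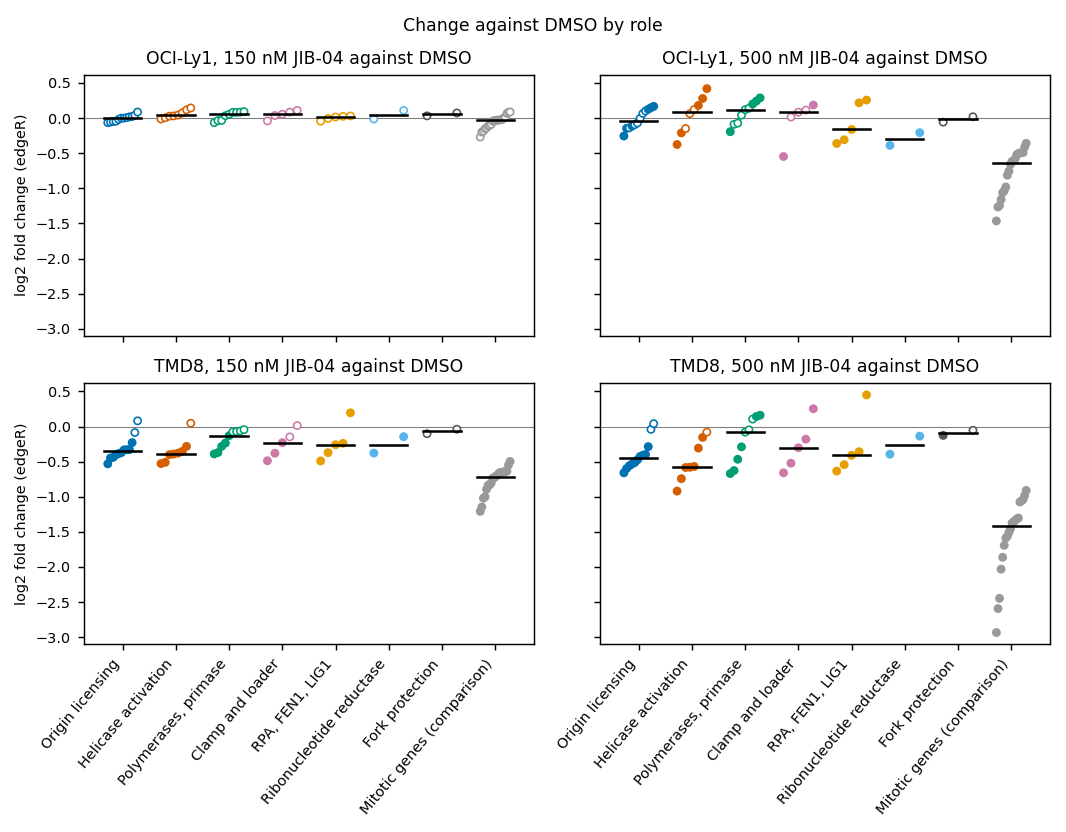
Log2 fold change against DMSO (vertical axis) of each replication gene by role and of 20 mitotic genes, for each line and dose. Filled points were called at an edgeR adjusted p under 0.05, open points were not, and black bars mark the median of each role; in OCI-Ly1 the medians at 500 nM lie on both sides of 0, from -0.30 for ribonucleotide reductase to 0.12 for polymerases, while in TMD8 the licensing and helicase activation genes lie lowest among the 5 larger roles.

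Licensing genes fell broadly in TMD8 and were split in OCI-Ly1. In TMD8 10 of the 12 fell at each dose, all but CDC6 and CDT1, with a median log2 change of -0.35 at the low and -0.45 at the high dose. Of all genes tested there 25% fell at the low dose, and 30.7% fell and 29.9% rose at the high dose. In OCI-Ly1 27.7% of all genes rose and 25.9% fell at the high dose, and the licensing counts lay near these shares. The same shares apply to the counts of the other roles below. The high dose split OCI-Ly1: CDC6, CDT1 and MCM3 rose, ORC1, GMNN and MCM7 fell and 6 were not called, with a median of -0.04 that was 0.05 with library size as the only scaling and 0.10 on log2(TPM + 1).

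MCM5 encodes a subunit of the ring-shaped helicase and had the largest fall of the licensing genes in TMD8. It measured 532, 509 and 502 CPM under vehicle, 407, 391 and 394 after the low dose and 324, 327 and 327 after the high dose, so the 3 groups did not overlap and each dose lay below the last. Its fall at 500 nM passed the test (log2 change -0.66 ± 0.045, edgeR adjusted p = 8.96e-10), as did that from 150 nM to 500 nM (-0.29, edgeR adjusted p = 0.00014). In OCI-Ly1 MCM5 measured 389, 373 and 355 CPM under vehicle and 379.7, 402 and 388 after the high dose, with overlapping groups (log2 change 0.066 ± 0.053, edgeR adjusted p = 0.308). The other 5 helicase subunits also fell in TMD8 at 500 nM, by log2 fold changes from -0.60 for MCM2 to -0.29 for MCM7.

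CDT1 loads the helicase together with CDC6. It measured 62.1, 57.6 and 54.998 CPM under vehicle and 62.4, 67.1 and 66.8 after the high dose in OCI-Ly1, where the lowest treated library lay just above the highest control (log2 change 0.17 ± 0.064, edgeR adjusted p = 0.0344). In TMD8 it measured 93.8, 88.9 and 97.8 CPM and 95.5, 94.4 and 99.1 after the high dose, with overlapping groups (log2 change 0.041 ± 0.052, edgeR adjusted p = 0.514). GMNN, the geminin gene, encodes the inhibitor of CDT1. It measured 88.7, 86.2 and 94.7 CPM under vehicle and 75.97, 75.01 and 75.02 after the high dose in OCI-Ly1, all treated libraries lying below the controls (log2 change -0.26 ± 0.056, edgeR adjusted p = 0.000993). On log2(TPM + 1) this change was -0.13 (limma adjusted p 0.132). In TMD8 GMNN went from 57.2, 51.2 and 53.3 CPM to 41.9, 40.5 and 36.5 after the low dose and 38.9, 34.7 and 38.1 after the high dose, again without overlap with DMSO (log2 change -0.53 ± 0.069, edgeR adjusted p = 2.85e-06). Some of the smaller OCI-Ly1 calls among licensing genes rested on single libraries. The edgeR adjusted p of CDT1 was 0.0955 and 0.153 without the second or the third DMSO library, and 0.112 and 0.101 without the second or the third 500 nM library. That of CDC6 was 0.0861 without the second DMSO library, and 0.0661 and 0.0592 without the first or the third 500 nM library. MCM3 came to 0.0565 and 0.132 without the second or the third DMSO library, and to 0.0781, 0.0662 and 0.0747 without the first, second or the third 500 nM library. The fall of MCM7 came to 0.0995 and 0.0811 without the first or second DMSO library, and to 0.0562 and 0.148 without the second or the third 500 nM library, and its change was -0.027 with library size alone (0.619) and turned to 0.023 on log2(TPM + 1). Without the low-count filter CDT1 and MCM3 missed the threshold (edgeR adjusted p 0.0557 and 0.0549). The fall of ORC1 came to 0.0894 and 0.0723 without the second or the third 500 nM library. Falls not called with all libraries were called for ORC2 without the first DMSO library (0.0388) or the third 500 nM library (0.0472), and for MCM6 without the first 500 nM library (0.0402).

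The origin recognition complex marks the origins. ORC1 went from a mean of 79.9 CPM under vehicle to 60.1 after the high dose in TMD8, ORC2 from 60.4 to 43.3 and ORC6 from 52.1 to 38.8. These 3 falls were -0.41, -0.47 and -0.43 on the log2 scale. In OCI-Ly1 only ORC1 was called (log2 change -0.15 ± 0.051, edgeR adjusted p = 0.0231), and its change was -0.060 with library size as the only scaling (edgeR adjusted p 0.325) and -0.0092 on log2(TPM + 1) (limma adjusted p 0.873).

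The MCM2 to MCM7 ring holds 1 copy of each subunit, so transcript levels per length were compared within the ring. With DMSO, MCM7 made up 38.6% ± 0.16 (SD, n = 3) of the summed TPM of the 6 genes in OCI-Ly1 and 15.4% ± 0.45 in TMD8. MCM5 made up 13.8% to 14.3% in OCI-Ly1 and 33.7% ± 0.19 in TMD8. The MCM7 share lay between 38.4% and 38.8% in the OCI-Ly1 DMSO libraries and between 14.9% and 15.7% in those of TMD8, so the lines did not overlap. After the high dose MCM7 made up 36.4% ± 0.66 in OCI-Ly1 and 17.4% to 18.5% in TMD8, and the MCM5 share in TMD8 was 30.5% ± 0.15. These shares are set by the transcript lengths and index used by the depositors, and they were compared without a test.

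**Figure D3:**
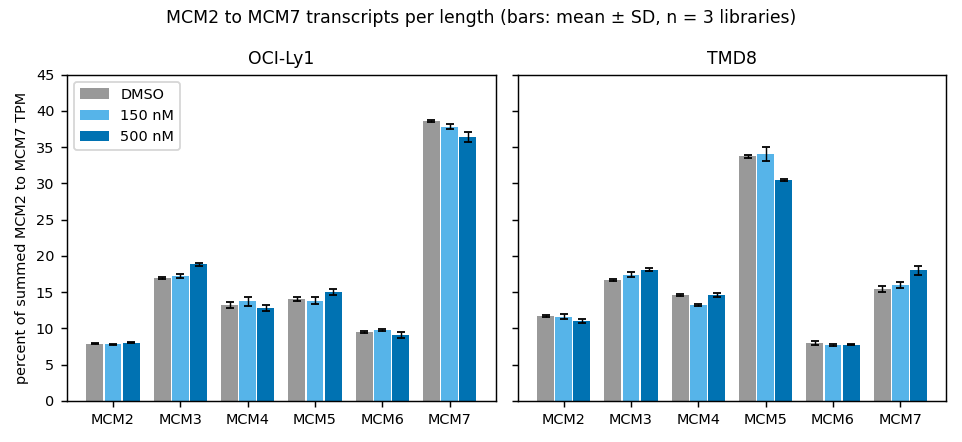
Share of each of the MCM2 to MCM7 genes in their summed TPM (vertical axis, percent; bars are means, error bars SD over 3 libraries) by dose in each line. MCM7 is the tallest bar in OCI-Ly1, at 38.6% with DMSO, and MCM5 the tallest in TMD8, at 33.7%.

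Genes of helicase activation had the largest changes of the roles in TMD8, where 7 of 8 fell at each dose (25% and 30.7% of all genes) and the median was -0.38 and then -0.57. After the high dose in OCI-Ly1 MCM10, CDC45 and GINS2 rose, GINS1 and DBF4 fell, and GINS3, GINS4 and CDC7 were not called.

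DBF4 encodes the activating subunit of the CDC7 kinase and fell furthest of the 43 genes in TMD8. It measured 69.4, 63.6 and 64.4 CPM under vehicle, 48.9, 46.1 and 43.9 after the low dose and 33.02, 37.6 and 33.7 after the high dose, with each group wholly below the one before (log2 change -0.92 ± 0.066, edgeR adjusted p = 1.79e-09). In OCI-Ly1 it measured 164, 177 and 192 CPM under vehicle and 153, 157 and 150.2 after the high dose (log2 change -0.21 ± 0.077, edgeR adjusted p = 0.0283). That smaller fall lost its call without the second or the third DMSO library (edgeR adjusted p 0.0529 and 0.129) and without the first or the third 500 nM library (0.0692 and 0.0845). It was -0.12 with library size as the only scaling (edgeR adjusted p 0.169) and -0.069 on log2(TPM + 1) (limma adjusted p 0.61). CDC7 itself fell in TMD8, from a mean of 38.1 to 25.4 CPM, and was not called in OCI-Ly1 (log2 change -0.15 ± 0.065, edgeR adjusted p = 0.0611), where the adjusted p came to 0.0474 without the first DMSO library.

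CDC45 encodes a helicase cofactor and had the largest rise of the 43 genes in OCI-Ly1. It measured 113, 107 and 108 CPM under vehicle, 119, 118 and 119 after the low dose and 144, 147 and 148 after the high dose, and the lowest treated library lay above the highest control at both doses (log2 change 0.42 ± 0.050, edgeR adjusted p = 1.96e-06). In TMD8 at 500 nM, with the values given above, 1 treated library lay inside the control range (log2 change -0.15 ± 0.063, edgeR adjusted p = 0.0408). That call was lost without the first or the third DMSO library (edgeR adjusted p 0.0948 and 0.0849) and without the first or the third 500 nM library (0.233 and 0.0765), and edgeR with library size alone gave 0.372 and DESeq2 0.0503. MCM10, which helps to activate the helicase, measured 86.99, 93.01 and 89.1 CPM under vehicle and 108, 113 and 106 after the high dose in OCI-Ly1 (log2 change 0.28 ± 0.056, edgeR adjusted p = 0.000432). In TMD8 it measured 124, 112 and 113 CPM under vehicle, 89.1, 91.4 and 84.4 after the low dose and 79.7, 80.4 and 72.6 after the high dose (log2 change -0.58 ± 0.056, edgeR adjusted p = 8.04e-08). Its treated libraries thus lay wholly above the controls in OCI-Ly1 and wholly below them in TMD8.

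The GINS complex holds 4 subunits that bind CDC45 and the helicase. GINS1 measured 89.5, 96.8 and 94.99 CPM under vehicle and 70.8, 70.3 and 75.4 after the high dose in OCI-Ly1 (log2 change -0.38 ± 0.061, edgeR adjusted p = 5.66e-05). In TMD8 it measured 81.01, 83.1 and 79.6 CPM under vehicle, 60.2, 56.1 and 53.2 after the low dose and 50.1, 48.5 and 46.8 after the high dose (log2 change -0.74 ± 0.056, edgeR adjusted p = 3.45e-09). GINS1 was thus below all controls in every library at 500 nM in both lines. GINS2 went the other way in OCI-Ly1, with 133, 139 and 136 CPM under vehicle and 161, 152 and 148 after the high dose (log2 change 0.18 ± 0.052, edgeR adjusted p = 0.00711). In TMD8 it fell from 26.9, 25.7 and 27.2 CPM to 21.1, 20.6 and 19.3 after the low dose and 18.98, 17.1 and 17.6 after the high dose (log2 change -0.57 ± 0.074, edgeR adjusted p = 2.75e-06). Without the first 500 nM library the rise of GINS2 in OCI-Ly1 had an edgeR adjusted p of 0.0565. GINS3 fell in TMD8 (log2 change -0.31 ± 0.072, edgeR adjusted p = 0.00122) and was not called in OCI-Ly1. GINS4 measured 40.4, 41.2 and 43.97 CPM under vehicle and 39.4, 39.4 and 40.2 after the high dose in TMD8 and 72.01, 73.7 and 70.2 and 74.9, 75.6 and 74.9 in OCI-Ly1, and it was called in neither line (edgeR adjusted p = 0.322 and 0.374).

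Polymerase and primase genes had the smallest median change of the 5 larger roles in TMD8, -0.13 at 150 nM and -0.08 at 500 nM. At 500 nM POLA2, POLD2, POLD3 and POLE2 fell there, POLA1 and POLE rose, and PRIM1, PRIM2 and POLD1 were not called. The median was 0.01 with library size as the only scaling and -0.45 on log2(TPM + 1). In OCI-Ly1 PRIM1, POLD3 and POLE rose at 500 nM, POLE2 fell and 5 were not called, with a median of 0.12 that was 0.074 without the second 500 nM library. POLD1 was called higher there when the first DMSO library was left out (edgeR adjusted p 0.0323).

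POLE encodes the catalytic subunit of polymerase epsilon, the leading-strand enzyme. It measured 226, 202 and 209.8 CPM under vehicle and 262, 254 and 262 after the high dose in OCI-Ly1, all treated libraries above the controls (log2 change 0.29 ± 0.057, edgeR adjusted p = 0.000378). In TMD8 it measured 177, 162 and 168 CPM under vehicle, 156, 160.4 and 166 after the low dose and 184, 186 and 189 after the high dose (log2 change 0.14 ± 0.047, edgeR adjusted p = 0.0144). The TMD8 rise was lost without the second DMSO library (edgeR adjusted p 0.0936) or the third 500 nM library (0.0598) and with DESeq2 (0.0568), and it turned to -0.22 on log2(TPM + 1). POLE2, the accessory subunit of the same enzyme, measured 59.8, 67.2 and 67.3 CPM under vehicle and 55.8, 54.9 and 59.02 after the high dose in OCI-Ly1 (log2 change -0.19 ± 0.068, edgeR adjusted p = 0.0234). In TMD8 POLE2 went from 18.7, 17.5 and 17.96 CPM to 15.2, 13.6 and 13.3 after the low dose and 10.5, 12.7 and 10.8 after the high dose, each group below the last (log2 change -0.67 ± 0.095, edgeR adjusted p = 7.72e-06). Its OCI-Ly1 fall was lost without the second or the third DMSO library (edgeR adjusted p 0.0761 and 0.0797) and without the first or second 500 nM library (0.0691 and 0.075). It was -0.11 with library size alone (0.186) and -0.057 on log2(TPM + 1) (limma adjusted p 0.58).

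POLA1 encodes the catalytic subunit of polymerase alpha. In TMD8 it measured 92.0, 81.5 and 80.03 CPM under vehicle, 82.0, 78.7 and 79.9 after the low dose and 91.2, 93.7 and 98.7 after the high dose, where the lowest treated library lay inside the control range (log2 change 0.16 ± 0.056, edgeR adjusted p = 0.0192). This rise was lost without the second or the third DMSO library (edgeR adjusted p 0.0857 and 0.109), without the third 500 nM library (0.0986) and with DESeq2 (0.0907), and it turned to -0.19 on log2(TPM + 1). In OCI-Ly1 POLA1 measured 166, 161 and 178 CPM under vehicle and 182, 181 and 186 after the high dose (log2 change 0.12 ± 0.053, edgeR adjusted p = 0.0635). Without the third DMSO library this came to an edgeR adjusted p of 0.0251. Its partner POLA2 fell in TMD8, from a mean of 63.03 CPM to 45.6. The primase subunits PRIM1 and PRIM2 make the RNA primers, and PRIM1 rose in OCI-Ly1 (log2 change 0.24 ± 0.062, edgeR adjusted p = 0.00323). Among the subunits of polymerase delta, the lagging-strand enzyme, POLD2 fell in TMD8 (log2 change -0.63 ± 0.046, edgeR adjusted p = 2.57e-09) while the catalytic POLD1 was not called at 500 nM (log2 change -0.080 ± 0.046, edgeR adjusted p = 0.143). POLD1 was called lower in TMD8 at 150 nM (log2 change -0.13 ± 0.046, edgeR adjusted p = 0.0275), with a highest adjusted p of 0.175 when 1 library was left out, the third 150 nM library. The others that ended this call were the second and the third DMSO libraries (0.0626 and 0.0727) and the first 150 nM library (0.0654). Library size alone gave 0.398, no low-count filter 0.0783 and a fit of the groups compared 0.169.

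Calls of the clamp and loader genes went both ways in each line. In OCI-Ly1 this was 1 of 5 genes each way, beside 27.7% higher and 25.9% lower of all genes. In TMD8 RFC2, RFC3, RFC4 and RFC5 fell at 500 nM and PCNA rose, with a median over the 5 genes of -0.30. In OCI-Ly1 RFC2 rose, RFC3 fell and PCNA, RFC4 and RFC5 were not called, with a median of 0.08 that was -0.003 on TPM centred per library and 0.024 without the first DMSO library.

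PCNA encodes the sliding clamp that tethers the polymerases and had the highest mean TPM of the 43 genes in each line with DMSO (585.0 ± 48.6 in OCI-Ly1 and 169.9 ± 25.01 in TMD8, SD, n = 3). Next came MCM7 in OCI-Ly1 (532.1 ± 9.32) and MCM5 in TMD8 (149.0 ± 17.6), and this order was not tested. PCNA measured 304, 277 and 272 CPM under vehicle, 287, 304 and 270.0 after the low dose and 332, 354 and 329 after the high dose in TMD8, where all 500 nM libraries lay above the others (log2 change 0.25 ± 0.056, edgeR adjusted p = 0.000752). On log2(TPM + 1) the change was -0.12, and on TPM centred per library the limma adjusted p was 0.0781. In OCI-Ly1 it measured 506, 558 and 578 CPM under vehicle and 604, 585 and 552 after the high dose, with overlapping groups (log2 change 0.084 ± 0.054, edgeR adjusted p = 0.201). The tables also list an antisense gene of PCNA and a pseudogene, and no strand was named for the counting, so reads from them cannot be told apart from those of PCNA here.

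RFC2 to RFC5 encode the small subunits of the clamp loader, which opens PCNA around DNA. RFC3 had the largest fall of the 43 genes in OCI-Ly1, from 219, 226 and 235 CPM under vehicle to 149, 153 and 165 after the high dose, while the 150 nM libraries had 216, 242 and 249.5 (log2 change -0.55 ± 0.060, edgeR adjusted p = 6.50e-07). In TMD8 RFC3 measured 101, 93.4 and 92.4 CPM under vehicle, 77.9, 74.4 and 68.7 after the low dose and 66.1, 70.2 and 63.2 after the high dose (log2 change -0.52 ± 0.059, edgeR adjusted p = 5.46e-07). RFC3 was thus the 1 loader gene with no overlap below its controls in both lines. RFC2 measured 110.1, 114 and 105 CPM under vehicle and 128, 123 and 122 after the high dose in OCI-Ly1 (log2 change 0.19 ± 0.052, edgeR adjusted p = 0.00633). In TMD8 it fell from 52.6, 52.8 and 55.9 CPM to 40.9, 44.7 and 45.7 (log2 change -0.30 ± 0.062, edgeR adjusted p = 0.000393). RFC5 measured 60.5, 49.6 and 51.9 CPM under vehicle, 39.98, 39.1 and 36.6 after the low dose and 36.2, 32.8 and 33.04 after the high dose in TMD8 (log2 change -0.66 ± 0.076, edgeR adjusted p = 6.74e-07), and 77.7, 76.4 and 81.7 under vehicle and 76.1, 82.2 and 80.2 after the high dose in OCI-Ly1 (log2 change 0.015 ± 0.058, edgeR adjusted p = 0.84). It thus lay below every control in TMD8 and among the controls in OCI-Ly1. The smaller TMD8 fall of RFC4 (log2 change -0.18 ± 0.062, edgeR adjusted p = 0.0173) did not hold when the first DMSO library (edgeR adjusted p 0.0556) or the first 500 nM library (0.0792) was left out, or with library size alone (0.182), and at 150 nM RFC4 was called lower without the third DMSO library (0.0225).

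RPA and the Okazaki fragment enzymes were all called at 500 nM in both lines. LIG1, the ligase that seals Okazaki fragments, was the 1 gene called higher in TMD8 at both doses. It measured 118, 118 and 119 CPM under vehicle, 127, 136 and 143 after the low dose and 168, 161 and 156 after the high dose, with each group wholly above the one before (log2 change 0.45 ± 0.051, edgeR adjusted p = 5.28e-07). On log2(TPM + 1) the changes were 0.037 at the low dose (limma adjusted p 0.79) and 0.071 at the high dose (0.53). In OCI-Ly1 it measured 151, 139 and 132 CPM under vehicle and 172, 173 and 160.4 after the high dose, again above all controls (log2 change 0.26 ± 0.061, edgeR adjusted p = 0.00178). FEN1 encodes the nuclease that trims the flap before ligation. It measured 249.7, 253 and 236 CPM under vehicle and 198, 195 and 182 after the high dose in OCI-Ly1 (log2 change -0.36 ± 0.051, edgeR adjusted p = 1.21e-05). In TMD8 FEN1 went from 146, 151 and 146 CPM to 117, 118 and 107 after the low dose and 100.4, 102 and 102 after the high dose (log2 change -0.54 ± 0.048, edgeR adjusted p = 2.31e-08). FEN1 and LIG1 thus moved in opposite directions in both lines.

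The RPA trimer coats single-stranded DNA behind the helicase. RPA3, its smallest subunit, measured 27.7, 24.8 and 22.4 CPM under vehicle and 17.7, 14.5 and 15.8 after the high dose in TMD8 (log2 change -0.63 ± 0.11, edgeR adjusted p = 4.82e-05) and 60.7, 61.3 and 62.3 and 53.6, 55.1 and 55.95 in OCI-Ly1 (log2 change -0.16 ± 0.064, edgeR adjusted p = 0.0398). The OCI-Ly1 call was lost without any 1 of the 6 libraries (edgeR adjusted p 0.0534, 0.0688 and 0.0855 without the first, second or the third DMSO library, and 0.117, 0.0701 and 0.0616 without the first, second or the third 500 nM library). With no scaling beyond library size the change was -0.075 (edgeR adjusted p 0.34), and it was -0.024 on log2(TPM + 1) (limma adjusted p 0.783). RPA1 fell in both lines (log2 change -0.31 ± 0.061, edgeR adjusted p = 0.000384 in OCI-Ly1 and -0.41 in TMD8). RPA2 rose in OCI-Ly1 (log2 change 0.22 ± 0.053, edgeR adjusted p = 0.00228) and fell in TMD8 (log2 change -0.36 ± 0.076, edgeR adjusted p = 0.000549). At 150 nM the TMD8 call of RPA2 did not hold when the first DMSO library was left out (edgeR adjusted p 0.0512), or without the second or the third 150 nM library (0.0564 and 0.116), or with library size alone (0.0791).

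Ribonucleotide reductase makes deoxyribonucleotides from a large subunit, RRM1, and a small one, RRM2. RRM1 measured 505, 548 and 522 CPM under vehicle and 411, 387 and 405 after the high dose in OCI-Ly1 (log2 change -0.39 ± 0.046, edgeR adjusted p = 1.67e-06), and 188, 164 and 162 and 128, 135 and 127 in TMD8 (log2 change -0.39 ± 0.060, edgeR adjusted p = 1.78e-05). RRM2 measured 373, 391 and 385 CPM under vehicle, 404, 418 and 416 after the low dose and 323, 331 and 340.1 after the high dose in OCI-Ly1 (log2 change -0.21 ± 0.044, edgeR adjusted p = 0.000757). In TMD8 it measured 204, 203 and 204 CPM under vehicle, 182, 187 and 184 after the low dose and 185, 186 and 185 after the high dose (log2 change -0.14 ± 0.042, edgeR adjusted p = 0.0088). Both subunits fell without overlap at 500 nM in both lines. On log2(TPM + 1) the OCI-Ly1 change of RRM2 was -0.070 (limma adjusted p 0.307). In TMD8 the differences between the doses missed the threshold (-0.016 and 0.0076, edgeR adjusted p = 0.879 and 0.921), and without the third 150 nM library RRM2 at that dose had an edgeR adjusted p of 0.0565. With library size as the only scaling the fall of RRM2 at 500 nM in TMD8 had an edgeR adjusted p of 0.313. TIMELESS and CLSPN stabilise stalled forks. TIMELESS measured 135, 128 and 132 CPM under vehicle and 121, 118 and 123 after the high dose in TMD8 (log2 change -0.13 ± 0.045, edgeR adjusted p = 0.0212), and 247, 246 and 238 and 232, 237 and 233 in OCI-Ly1 (log2 change -0.058 ± 0.058, edgeR adjusted p = 0.414). The TMD8 call was lost without the first or second 500 nM library (edgeR adjusted p 0.0584 and 0.0863) and with library size alone (0.468). CLSPN measured 232, 237 and 239.7 CPM under vehicle and 242, 240.4 and 236 after the high dose in OCI-Ly1 and 79.9, 77.2 and 83.3 and 74.1, 80.6 and 77.1 in TMD8, with overlap in both, and was called in neither.

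The directions in the 2 lines were then read gene by gene at 500 nM. All 12 genes lower in OCI-Ly1 were also lower in TMD8 (ORC1, GMNN, MCM7, GINS1, DBF4, POLE2, RFC3, RPA1, RPA3, FEN1, RRM1 and RRM2), whereas 51.4% of all genes lower in OCI-Ly1 were lower in TMD8. Most of the 43 genes were lower in TMD8, however, 32 in all, among them 13 of the 19 not called in OCI-Ly1. Of the 12 OCI-Ly1 falls 7 were not kept under all 15 alternative settings. Of the 12 genes higher in OCI-Ly1, 2 were higher in TMD8 (POLE and LIG1) and 7 were lower (MCM3, MCM10, CDC45, GINS2, POLD3, RFC2 and RPA2). Over all genes the corresponding shares were 50.1% and 17.8%. CDC6, CDT1 and PRIM1 were higher in OCI-Ly1 and not called in TMD8. Another 13 genes were lower in TMD8 alone, POLA1 and PCNA were higher there alone, and GINS4, PRIM2, POLD1 and CLSPN were called in neither line. Of all genes not called in OCI-Ly1, 28.9% were lower in TMD8, 25.3% were higher and 45.9% were not called. These counts describe the genes, and a call in 1 line alone is no test of a difference between lines.

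**Figure D4:**
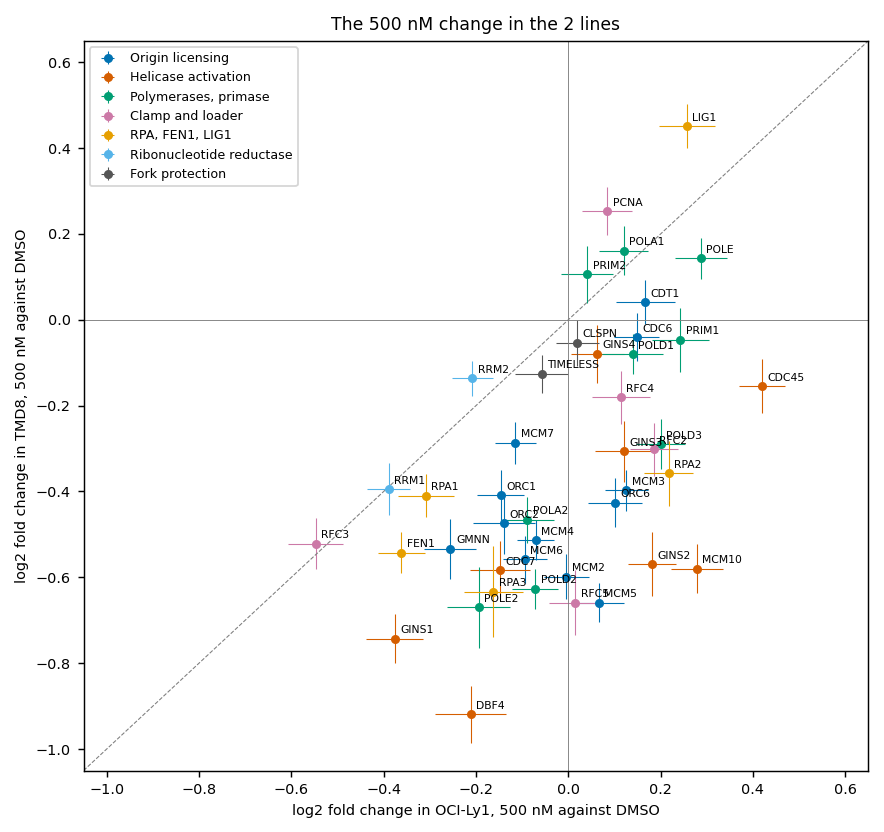
Log2 fold change at 500 nM against DMSO in OCI-Ly1 (horizontal axis) and TMD8 (vertical axis) of the 43 genes, coloured by role, with bars of 1 SE; the dashed line marks equal change. Most points lie below the dashed line and only LIG1, PCNA, POLE, POLA1, PRIM2 and CDT1 lie above 0 in TMD8, where the last 5 of these fall below 0 on log2(TPM + 1).

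The difference itself was tested as the change in OCI-Ly1 minus the change in TMD8, in 1 fit of all 18 libraries. At 150 nM it was called for 28 of the 43 genes, each time positive, and at 500 nM for 30, again each time positive. Over the 16604 genes tested in that fit 15% were positive and 8.33% negative at 150 nM, and 28.2% and 18.1% at 500 nM. Of the called genes 64.2% were thus positive at 150 nM, 47% with library size as the only scaling and 85.2% on log2(TPM + 1), and the 43 genes came to 24 positive and 1 negative, and to 32 and 0. At 500 nM 60.9% of called genes were positive, 89.1% on log2(TPM + 1) and 43.4% on TPM centred per library, and the 43 genes came to 43 and 31 positive with 0 negative. No gene of the 43 had a negative difference at an unadjusted p under 0.05 at either dose with edgeR, and DESeq2 called 0 negative. The largest differences at 500 nM were 0.89 for MCM10 (SE 0.083, edgeR adjusted p = 3.08e-09), 0.78 for GINS2 (SE 0.086, edgeR adjusted p = 5.77e-08) and 0.76 for MCM5 (SE 0.076, edgeR adjusted p = 1.16e-08). By role, the difference was called at 500 nM for 11 of 12 licensing genes, 7 of 8 genes of helicase activation, 6 of 9 polymerase genes, 3 of 5 clamp and loader genes and 3 of 5 of the RPA and Okazaki genes. It was called for neither subunit of ribonucleotide reductase, whose differences were 0.037 (SE 0.085) and -0.041 (SE 0.064), and for RFC3 it was 0.0055 (SE 0.091, edgeR adjusted p = 0.98). The most negative values were -0.16 for LIG1 (SE 0.084, edgeR adjusted p = 0.112) and -0.14 for PCNA (SE 0.088, edgeR adjusted p = 0.207), which missed the threshold and were 0.32 and 0.34 on log2(TPM + 1). The 20 mitotic genes had a median difference of 0.77 and all were called positive, so the replication genes shared that direction. At 150 nM, 1 gene of the 43 was called negative without the first 150 nM library of OCI-Ly1.

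Some genes whose products work as partners moved unequally, and their CPM ratios within each library do not depend on the scaling between libraries. These pairs were chosen after the values were seen, and other pairs were not counted. The gene with the more negative change at 500 nM is written first in each. That every ratio fell thus follows from this choice, and the ratios are a description. CPM is not corrected for transcript length, so a ratio is compared between libraries and not with 1. FEN1 to LIG1 was 1.66, 1.82 and 1.78 in the OCI-Ly1 vehicle libraries and 1.15, 1.13 and 1.14 after the high dose, a change of -35.0% in the mean. In TMD8 it was 1.24, 1.28 and 1.22 under vehicle, 0.919, 0.872 and 0.750 after the low dose and 0.596, 0.632 and 0.654 after the high dose, a change of -49.7%. POLE2 to POLE was 0.265, 0.333 and 0.321 under vehicle and 0.213, 0.216 and 0.225 after the high dose in OCI-Ly1 (-28.8%). In TMD8 it was 0.106, 0.109 and 0.107 under vehicle and 0.0569, 0.0682 and 0.0572 after the high dose (-43.2%). All 500 nM libraries of both lines thus lay below the DMSO libraries.

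RFC3 to RFC2 went from 1.99, 1.99 and 2.24 under vehicle to 1.16, 1.24 and 1.35 after the high dose in OCI-Ly1 (-39.8%), and the TMD8 values from 1.93, 1.77 and 1.65 to 1.62, 1.57 and 1.38 (-14.6%). GINS1 to GINS2 went from 0.674, 0.697 and 0.698 to 0.439, 0.462 and 0.508 in OCI-Ly1 (-31.9%), and the TMD8 values from 3.02, 3.23 and 2.93 to 2.64, 2.84 and 2.66 (-11.3%). These 2 ratios moved further in OCI-Ly1, where the 2 genes of each pair were called in opposite directions. GMNN to CDT1, the inhibitor against its target, fell from a mean of 1.55 to 1.15 in OCI-Ly1 (-25.6%), and in TMD8 from 0.577 to 0.386 (-33.0%). RRM1 to RRM2 changed by -11.7% and -16.4%, and DBF4 to CDC7 by -4.13% in OCI-Ly1, where the groups overlapped, and by -21.0% in TMD8. All ratios but that one had 500 nM libraries wholly below the DMSO libraries.

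**Figure D5:**
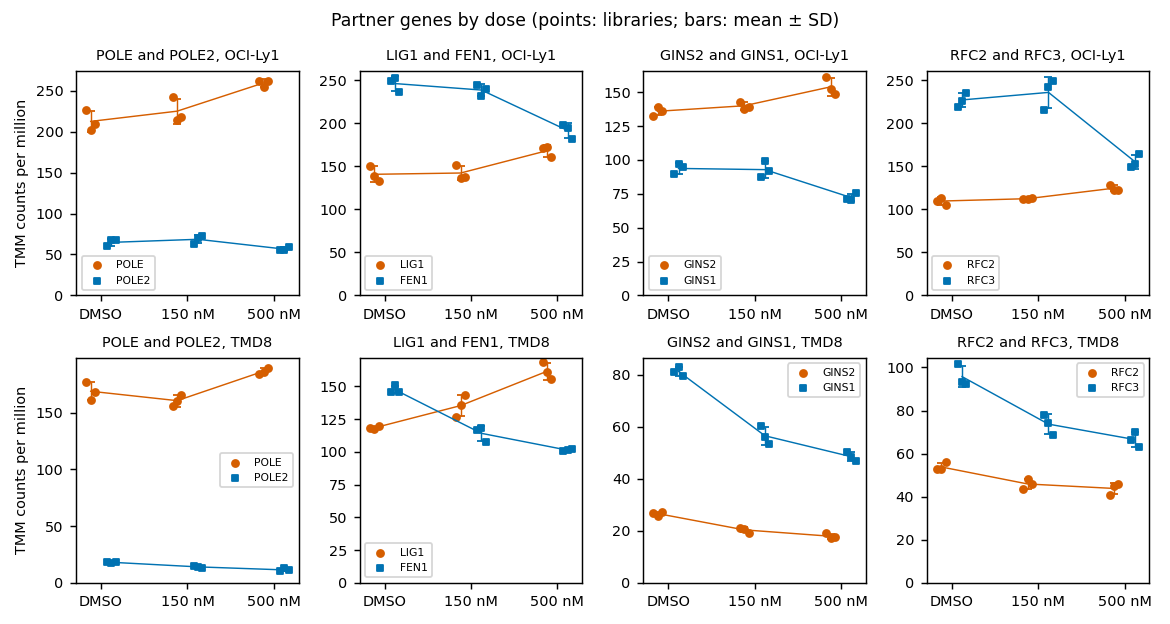
TMM-scaled CPM (vertical axis, from 0) of 4 partner pairs in each library by dose; points are libraries and bars mean ± SD over 3 libraries. In TMD8 the FEN1 points go down and the LIG1 points up with dose, and RFC3 in OCI-Ly1 falls only at 500 nM.

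Promoter sequences are shown for the 4 pairs drawn above, to see which promoter elements the genes of a pair hold. They come from the RefSeq promoter table on GRCh38.p14, while the submitters' processing notes name hg19, and 37 of the 43 genes matched an entry. Each run below holds the 250 bases before a start site, 5′ to 3′ on the strand of the gene, with capitals for matches to an E2F-type site (TTCCCGC with the variant TTGGCGC, the variant TTCGCGC and the variant TTGCCGC) or a CCAAT box, on either strand. Adjacent or overlapping matches run together. MCM6 is added as a licensing gene with several matches.
POLE (chr12:132687343-132687592, minus strand): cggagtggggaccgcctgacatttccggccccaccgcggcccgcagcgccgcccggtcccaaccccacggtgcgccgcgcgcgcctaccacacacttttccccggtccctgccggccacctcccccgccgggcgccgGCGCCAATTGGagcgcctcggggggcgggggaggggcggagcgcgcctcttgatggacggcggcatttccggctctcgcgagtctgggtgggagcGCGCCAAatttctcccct
POLE2 (chr14:49688215-49688464, minus strand): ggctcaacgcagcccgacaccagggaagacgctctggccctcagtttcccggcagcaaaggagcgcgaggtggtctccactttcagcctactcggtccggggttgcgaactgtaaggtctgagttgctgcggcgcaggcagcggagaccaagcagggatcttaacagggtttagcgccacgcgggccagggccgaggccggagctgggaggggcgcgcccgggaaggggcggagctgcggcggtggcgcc
LIG1 (chr19:48170345-48170594, minus strand): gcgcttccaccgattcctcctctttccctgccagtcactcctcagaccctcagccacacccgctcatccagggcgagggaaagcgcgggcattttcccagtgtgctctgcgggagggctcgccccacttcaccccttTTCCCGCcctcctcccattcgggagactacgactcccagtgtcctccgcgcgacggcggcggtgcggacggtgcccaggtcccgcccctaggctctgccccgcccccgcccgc
FEN1 (chr11:61792661-61792910, plus strand): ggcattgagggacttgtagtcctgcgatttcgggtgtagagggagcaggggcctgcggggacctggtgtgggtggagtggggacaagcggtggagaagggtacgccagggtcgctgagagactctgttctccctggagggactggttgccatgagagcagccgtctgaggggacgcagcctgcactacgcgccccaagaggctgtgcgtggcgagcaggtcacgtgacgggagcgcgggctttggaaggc
GINS2 (chr16:85688955-85689204, minus strand): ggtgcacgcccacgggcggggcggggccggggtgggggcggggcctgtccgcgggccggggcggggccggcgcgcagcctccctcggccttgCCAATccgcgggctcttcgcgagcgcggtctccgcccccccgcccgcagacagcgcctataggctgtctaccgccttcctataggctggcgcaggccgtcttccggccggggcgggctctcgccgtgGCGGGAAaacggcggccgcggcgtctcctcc
GINS1 (chr20:25407423-25407672, plus strand): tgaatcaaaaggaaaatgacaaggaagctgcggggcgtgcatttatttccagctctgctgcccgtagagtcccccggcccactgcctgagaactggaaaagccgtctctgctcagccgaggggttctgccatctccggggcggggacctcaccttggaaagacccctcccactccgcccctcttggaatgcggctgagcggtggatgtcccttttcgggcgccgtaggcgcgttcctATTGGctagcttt
RFC2 (chr7:74254400-74254649, minus strand): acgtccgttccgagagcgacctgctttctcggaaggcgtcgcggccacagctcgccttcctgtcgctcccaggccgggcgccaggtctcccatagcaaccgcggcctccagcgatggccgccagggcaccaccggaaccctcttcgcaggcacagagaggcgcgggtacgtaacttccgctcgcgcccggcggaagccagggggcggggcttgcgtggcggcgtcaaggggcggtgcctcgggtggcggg
RFC3 (chr13:33817899-33818148, plus strand): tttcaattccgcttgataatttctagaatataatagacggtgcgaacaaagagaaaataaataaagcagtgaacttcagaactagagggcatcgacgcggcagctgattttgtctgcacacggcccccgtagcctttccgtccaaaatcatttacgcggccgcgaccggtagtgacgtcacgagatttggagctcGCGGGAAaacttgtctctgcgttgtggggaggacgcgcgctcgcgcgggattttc
MCM6 (chr2:135876444-135876693, minus strand): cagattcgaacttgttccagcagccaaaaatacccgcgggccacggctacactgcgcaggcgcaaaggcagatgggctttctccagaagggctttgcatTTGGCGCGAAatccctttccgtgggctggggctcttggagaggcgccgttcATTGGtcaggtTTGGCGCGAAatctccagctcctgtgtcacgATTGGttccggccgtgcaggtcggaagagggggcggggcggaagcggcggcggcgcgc

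In this window POLE, LIG1 and GINS2 held an E2F-type match and their partners POLE2, FEN1 and GINS1 held none. RFC3, which fell in OCI-Ly1, held 1 and RFC2, which rose there, held none. Of the other 3 pairs, CDC7 and CDT1 held 2 in each of their entries, DBF4 held none, RRM1 held 1, and GMNN and RRM2 each held 1 in only 1 of 2 entries. Over the 47 promoter entries of the genes 44.7% held an E2F-type match and 59.6% a CCAAT box, against 10.9% and 32.0% of all 35116 promoters of the same length. The cell cycle element found in many mitotic promoters (CHR, searched as TTTGAA or TTCGAA on either strand) was in 4.26% of them and in 14.3% of all promoters. In OCI-Ly1 6 of 10 genes higher at 500 nM, 7 of 11 lower and 6 of 16 not called had an E2F-type match in any of their promoters. In TMD8 the counts were 4 of 4 higher (POLE, LIG1, POLA1 and PCNA), 13 of 27 lower and 2 of 6 not called. A match describes letters in this window and shows neither binding nor its absence. A link between matches and changes was not tested.

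Other replication genes, a list of 32 that were no members of the group above, were counted in the same fits. In OCI-Ly1 at 500 nM 7 rose and 5 fell, where 27.7% and 25.9% of all genes were called, and in TMD8 7 rose and 16 fell, beside 29.9% and 30.7%. TOP1, the topoisomerase that relaxes DNA ahead of the fork, had log2 changes of -0.92 in OCI-Ly1 and -0.62 in TMD8, both falls called, and POLD4, the smallest subunit of polymerase delta, fell by 0.74 in OCI-Ly1. MTBP and CHTF18, a partner of the origin-firing factor TICRR and a subunit of an alternative clamp loader, rose by 0.62 and 0.65 in OCI-Ly1. In TMD8 the largest falls were -0.84 for TIPIN, the partner of TIMELESS, and -0.71 for POLE3, a further polymerase epsilon subunit, and the largest rises were 0.37 for DONSON and 0.92 for RRM2B. RRM2B, the p53-induced small subunit of ribonucleotide reductase, went from a mean of 67.1 CPM to 127 in TMD8 and from 404 to 266 in OCI-Ly1, opposite directions that both passed the test (edgeR adjusted p = 7.32e-11 and 8.66e-07). RRM2 fell in both lines. Of 24 genes of the E2F family and the G1/S control, 7 rose and 8 fell in OCI-Ly1, where 23 were tested (27.7% and 25.9% of all genes), and 6 rose and 10 fell in TMD8 (29.9% and 30.7%). Among them CDKN1A, the p21 inhibitor of cyclin-dependent kinases, went from a mean of 17.1 CPM to 142 in OCI-Ly1, and its TMD8 mean from 77.7 to 217. The part of these genes in the changes of the replication genes was not tested.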

How the data were processed

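RNA from 18 cell line libraries was sequenced as rRNA-depleted paired-end libraries with 101 cycles, per the labels' protocols. The deposited tables hold estimated counts and TPM per gene symbol, and kallisto 0.46.0, R 4.3.1, DESeq2 1.40.2 and hg19 are named in the submitters' processing notes; the index, annotation and summing to genes are not given in the sources used here. Estimated counts were rounded. The test was edgeR 4.0.16 quasi-likelihood (R 4.3.3) with TMM scaling and filterByExpr, on all 9 libraries of a line, or all 18 for line differences, with Benjamini-Hochberg adjustment over all genes and a threshold of 0.05. Alternatives were other scalings, no low-count filter, DESeq2 1.42.0, limma 3.58.1 on log2 values of the deposited TPM with a pseudocount of 1 or 0.1, a replicate block, only the groups compared, and leaving out each library. Scripts were tested on simulated data. The genes and lists were chosen with earlier results of these data known. Genes described with library values had the lowest or highest change of their role in a line or were among the largest line differences, and the remaining partner genes were chosen after their values were seen. No pair of libraries agreed within sampling noise. A further B-cell marker is not reported here.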

Additional observations from a re-analysis of the deposited data

Results flagged for a closer look

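The change in OCI-Ly1 minus the change in TMD8 passed the test for 28 of the 43 genes at 150 nM and for 30 at 500 nM (edgeR quasi-likelihood interaction over 18 libraries, Benjamini-Hochberg adjustment over all genes). Every such difference was positive on the log2 scale. Over the 16604 genes tested 15% were positive and 8.33% negative at 150 nM, and 28.2% and 18.1% at 500 nM. Of all called genes at 150 nM 64.2% were positive, 47% with library size as the only scaling and 85.2% on log2(TPM + 1). At 500 nM 60.9% were positive, 89.1% on log2(TPM + 1) and 43.4% on TPM centred per library.

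At 150 nM the differences of the licensing genes were 0.37 for ORC1, 0.38 for ORC2, 0.23 for ORC6, 0.47 for GMNN, 0.36 for MCM2, 0.34 for MCM3, 0.56 for MCM4, 0.33 for MCM5, 0.45 for MCM6 and 0.28 for MCM7. Those of the genes of helicase activation were 0.48 for MCM10, 0.48 for CDC45, 0.52 for GINS1, 0.44 for GINS2, 0.32 for GINS3, 0.41 for CDC7 and 0.66 for DBF4. Those of the polymerase and primase genes were 0.36 for POLD2, 0.32 for POLD3 and 0.46 for POLE2. Those of the clamp loader genes were 0.27 for RFC2, 0.44 for RFC3 and 0.45 for RFC5. Those of the RPA and Okazaki genes were 0.30 for RPA1, 0.52 for RPA3 and 0.33 for FEN1. Those of the ribonucleotide reductase genes were 0.37 for RRM1 and 0.26 for RRM2. The smallest was that of ORC6 (SE 0.08, edgeR adjusted p = 0.0333) and the largest that of DBF4 (SE 0.11, edgeR adjusted p = 8.14e-05). At that dose 4 of the 28 lost their call in some alternative. With 1 library left out, edgeR's adjusted p for ORC6 was 0.0541 to 0.119 without the first or the third DMSO library of TMD8, the third 150 nM library of TMD8, the first DMSO library of OCI-Ly1 or its second or the third 150 nM library. For GINS3 it was 0.0649 without the first DMSO library of TMD8 and 0.0746 without the third 150 nM library of TMD8. For RPA1 it was 0.0504 without the first 150 nM library of OCI-Ly1 and 0.0514 without the third of TMD8. With library size as the only scaling the adjusted p was 0.163 for ORC6, 0.0563 for GINS3, 0.0577 for RPA1 and 0.0728 for RFC2.

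At 500 nM the differences of the licensing genes were 0.29 for ORC1, 0.37 for ORC2, 0.56 for ORC6, 0.22 for CDC6, 0.31 for GMNN, 0.62 for MCM2, 0.55 for MCM3, 0.47 for MCM4, 0.76 for MCM5, 0.49 for MCM6 and 0.20 for MCM7. Those of the genes of helicase activation were 0.89 for MCM10, 0.60 for CDC45, 0.40 for GINS1, 0.78 for GINS2, 0.46 for GINS3, 0.47 for CDC7 and 0.74 for DBF4. Those of the polymerase and primase genes were 0.41 for POLA2, 0.32 for PRIM1, 0.25 for POLD1, 0.58 for POLD2, 0.52 for POLD3 and 0.51 for POLE2. Those of the clamp loader genes were 0.52 for RFC2, 0.33 for RFC4 and 0.70 for RFC5. Those of the RPA and Okazaki genes were 0.60 for RPA2, 0.50 for RPA3 and 0.21 for FEN1. The smallest was that of MCM7 (SE 0.077, edgeR adjusted p = 0.0342) and the largest that of MCM10 (SE 0.083, edgeR adjusted p = 3.08e-09). At that dose edgeR's adjusted p for CDC6 was 0.0551 without the second DMSO library of OCI-Ly1, and 0.0793 and 0.0954 without the first DMSO or first 500 nM library of TMD8. For MCM7 it was 0.0838, 0.0683 and 0.0624 without the third DMSO, first 500 nM or second 500 nM library of OCI-Ly1, and 0.0586 and 0.0891 without the first or the third 500 nM library of TMD8. For POLD1 it was 0.0557 and 0.0732 without the third DMSO or second 500 nM library of OCI-Ly1 and 0.0517 without the second 500 nM library of TMD8. For FEN1 it was 0.0593 and 0.0577 without the third DMSO or first 500 nM library of OCI-Ly1. The other 26 kept their call under all 21 alternatives, as did 24 of the 28 at 150 nM.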

How the results depend on the processing

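The count of negative line differences at 500 nM stayed at 0 under all alternatives, and of the falls in TMD8 28 of 32 at 500 nM, 27 of 31 at 150 nM and 4 of 12 between the doses kept their call under all 15. With library size as the only scaling, 21 genes were higher and 7 lower in OCI-Ly1 at 500 nM, 2 were higher in TMD8 at 150 nM, and 1 line difference at 150 nM was negative. On log2(TPM + 1) and on log2(TPM + 0.1) 23 were higher and 5 lower in OCI-Ly1 at 500 nM, 7 were lower there between the doses, and 0 were higher in TMD8 in any comparison, where 21 and 24 were lower between the doses. On centred log2(TPM + 1) 5 genes were higher in OCI-Ly1 at 500 nM, 2 in OCI-Ly1 between the doses, 1 in TMD8 at 500 nM and 3 in TMD8 between the doses. Without the low-count filter 7 were higher in OCI-Ly1 between the doses, and DESeq2 called 2 higher in TMD8 at 500 nM. The causes were not tested.

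The following medians at 500 nM are given in the order library size alone, log2(TPM + 1), log2(TPM + 0.1) and centred log2(TPM + 1). In OCI-Ly1 they were 0.11, 0.15, 0.16 and -0.074 for all 43 genes, 0.050, 0.10, 0.10 and -0.13 for licensing, 0.21, 0.25, 0.26 and 0.029 for polymerases, and 0.17, 0.22, 0.22 and -0.0029 for the clamp and loader. In TMD8 they were -0.30, -0.74, -0.77 and -0.49 for all 43, -0.36, -0.77, -0.83 and -0.52 for licensing, 0.013, -0.45, -0.45 and -0.19 for polymerases, and -0.21, -0.64, -0.67 and -0.39 for the clamp and loader. Without the low-count filter the OCI-Ly1 medians were 0.0082 for all 43 genes and 0.11 for polymerases.

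Some genes called with edgeR or on the TPM scale changed sign on log2(TPM + 1) and log2(TPM + 0.1), given in that order. Sign changes of genes called on neither scale were not listed. In OCI-Ly1 at 500 nM MCM2 came to 0.134 and 0.135 and MCM7 to 0.0232 and 0.0232. In TMD8 at 500 nM CDT1 came to -0.318 and -0.33, POLA1 to -0.193 and -0.21, PRIM2 to -0.255 and -0.276, POLE to -0.216 and -0.23, and PCNA to -0.12 and -0.121. Between the doses in TMD8 CDC45 came to -0.0182 and -0.0194 and POLE to -0.00445 and -0.00486. The line difference at 500 nM came to 0.448 and 0.469 for POLA1, 0.43 and 0.454 for PRIM2, 0.343 and 0.344 for PCNA, 0.32 and 0.323 for LIG1, and 0.431 and 0.443 for RRM2.

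With 1 library left out, the OCI-Ly1 medians at 500 nM ran from 0.0044 to 0.043 for all 43 genes, -0.054 to -0.032 for licensing, 0.074 to 0.120 for polymerases and 0.024 to 0.122 for the clamp and loader, and the TMD8 median from -0.427 to -0.356. Counts between the doses ran from 5 to 10 higher in OCI-Ly1 and from 6 to 16 lower in TMD8, the count higher in TMD8 at 500 nM from 2 to 4, and negative line differences at 150 nM from 0 to 1. The replicate numbers did not pair the samples (same-numbered libraries correlated by -0.0545 to 0.146, and 4 of 9 libraries in each line correlated best with their own number), and with the replicate block 13 genes were higher and 14 lower in OCI-Ly1 at 500 nM, 1 higher and 31 lower in TMD8 at 150 nM, 4 and 32 at 500 nM, and 30 and 31 line differences were positive at 150 and 500 nM.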
